A study of Mus musculus with 2 samples.

Results

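The S100 family of small EF-hand calcium-binding proteins was examined in mouse bone marrow-derived MDSCs through 8 genes, S100a1, S100a4, S100a6, S100a8, S100a9, S100a10, S100a11 and S100a13, taken by symbol from the 17 S100 genes among the 32285 genes of the feature tables. Both scRNA-seq libraries came from bone marrow of C57BL/6 females (age 10 weeks) differentiated over 4 days in medium that held 50 ng/mL of GM-CSF and 50 ng/mL of IL-6. One culture received 1.5 µM dabrafenib, a BRAF kinase inhibitor (DAB), and the other the matching volume of its solvent (DMSO). Each condition had 1 library, so no test between conditions could be made, and every 95% interval below covers counting error only. No source used here says how many mice went into either library.

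S100 proteins work mostly as dimers that change shape on binding calcium and then grip a partner protein. S100a8 and S100a9 encode the subunits of calprotectin, the cytosolic protein of neutrophils that binds zinc and manganese and, once released, signals through the receptors encoded by Tlr4 and Ager. Calprotectin is widely used as a marker of MDSCs and is made in large amounts as granulocytes mature. The remaining members act chiefly inside cells: S100a10 and S100a11 bind annexins, S100a4 binds non-muscle myosin, S100a6 binds annexins and other partners, S100a1 is best known from heart muscle, and S100a13 is linked to the export of proteins that lack a signal peptide.

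After filtering, 9023 DMSO cells with 93250091 unique molecular identifiers (UMIs) and 10460 DAB cells with 141564123 UMIs remained, with a median per cell of 7581 and 9580 UMIs. The deposited files shared 152 barcodes. Cells were grouped without the use of any S100 gene into 23 clusters, and 15 of these were named from marker genes of 10 cell classes. The other 8 clusters, with 34.2% of DMSO and 27.6% of DAB cells, had no class name and enter only the values for all cells or single clusters. Myeloid markers defined 9 of the classes, and the tenth was B cell-like. A level is the sum of a gene's UMIs in the chosen cells of 1 library, scaled to 1000000 UMIs (CPM). A UMI stands for 1 captured molecule end, so levels were not divided by gene length. Ratios set the DAB level over the DMSO level on the log2 scale, and a gene was read as higher or lower from a size of at least 0.5 with an interval that leaves out 0.

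All members lie on chromosome 3 (GRCm38). Within 185 kb stand 6 of them, in the order S100a1 (90511034 to 90514392, minus strand), S100a13 (90514435 to 90524581, plus), S100a4 (90603771 to 90606045, plus), S100a6 (90612882 to 90624181, plus), S100a8 (90668978 to 90670035, plus) and S100a9 (90692632 to 90695721, minus). S100a11 (93520488 to 93526287, plus) and S100a10 (93555080 to 93564643, plus) lie 2824766 bases beyond S100a9. The starts of S100a1 and S100a13 are 43 bases apart on opposite strands. The sequences before S100a8 and S100a9 are shown because these genes had the most similar levels over clusters. They come from RefSeq (GRCm38.p6), which lists promoters for 7 of the 8 members, and stop at the base before the first annotated exon. Capitals mark a match to 1 of 5 motifs searched on both strands: the C/EBP motif TTGCNNAA, the PU.1 motif GAGGAA, the AP-1 motif TGANTCA, the core promoter motif TATAAA and the STAT motif TTCNNNGAA. The matches shown do not overlap.
S100a8, chr3:90668821-90668977, plus strand: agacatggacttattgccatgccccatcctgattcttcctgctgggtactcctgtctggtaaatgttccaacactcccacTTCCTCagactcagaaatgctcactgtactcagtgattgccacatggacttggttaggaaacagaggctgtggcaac
S100a9, chr3:90695722-90695971, minus strand: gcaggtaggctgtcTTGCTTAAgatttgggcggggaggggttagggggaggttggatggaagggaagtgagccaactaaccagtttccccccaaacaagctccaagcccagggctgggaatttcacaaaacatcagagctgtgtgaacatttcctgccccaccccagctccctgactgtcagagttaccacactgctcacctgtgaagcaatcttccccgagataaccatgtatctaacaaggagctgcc
For S100a8 the stretch is the first 157 of the 250 bases before the RefSeq start. The rest, nearest that start, fall in or after an annotated exon and were not searched. The 157 bases held 1 PU.1 match on the opposite strand. Of the 32851 promoters in the RefSeq table, 15.3% hold one in the same window, which leaves out the bases nearest their starts. The 250 bases before S100a9 held 1 C/EBP match, present in 9.56% of promoters. A match of letters is a description and not evidence of binding.

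The calprotectin genes dominated the family. S100a8 stood at 18198 CPM (95% interval 18171 to 18225) in DMSO and 17942 CPM (17920 to 17965) in DAB, and S100a9 at 20970 CPM (20940 to 20999) and 17119 CPM (17098 to 17141). Together they took 3.92% of all DMSO and 3.51% of all DAB UMIs. Neither was read as changed over all cells, with log2 ratios of -0.02 for S100a8 and -0.29 for S100a9. S100a6 followed with 2728 CPM in DMSO and 3896 CPM in DAB, S100a11 with 1743 and 2460 CPM, and S100a10 with 638 and 672 CPM. S100a4 had 162 and 230 CPM, S100a13 had 114 and 106 CPM, and S100a1 had 84.1 and 49.4 CPM. The intervals of no pair of neighbours in this order overlapped within a library.

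Over all cells S100a4 (log2 ratio 0.51) and S100a6 (0.51) were higher in DAB and S100a1 (-0.77) was lower. That makes 2 of 8 members higher, against 13.7% of the 13360 genes with at least 100 UMIs, and 1 of 8 lower, against 16% of genes. S100a11 stood just inside the limit with 0.497, while S100a10 (0.08) and S100a13 (-0.10) were near equal. The median of the members was 0.03 and that of all genes -0.02. The 6 members outside calprotectin rose in sum from 0.547% to 0.741% of UMIs, a log2 ratio of 0.44 (0.43 to 0.44). Where each cell had the same weight, S100a4 (0.43) and S100a6 (0.23) fell short of the limit, while S100a11 (0.61) was higher and S100a9 (-0.59) lower. With the B cell-like level subtracted, S100a4 (0.46) also fell short and S100a13 (-0.59) was lower. That level rests on 0 DMSO and 8 DAB UMIs of S100a4 and on 11 and 42 of S100a13. B cell-like cells were chosen as a gauge for calprotectin, so the subtraction sets no background level for these genes. S100a1 was lower in each of the 8 other settings tried over all cells.

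**Figure D1:**
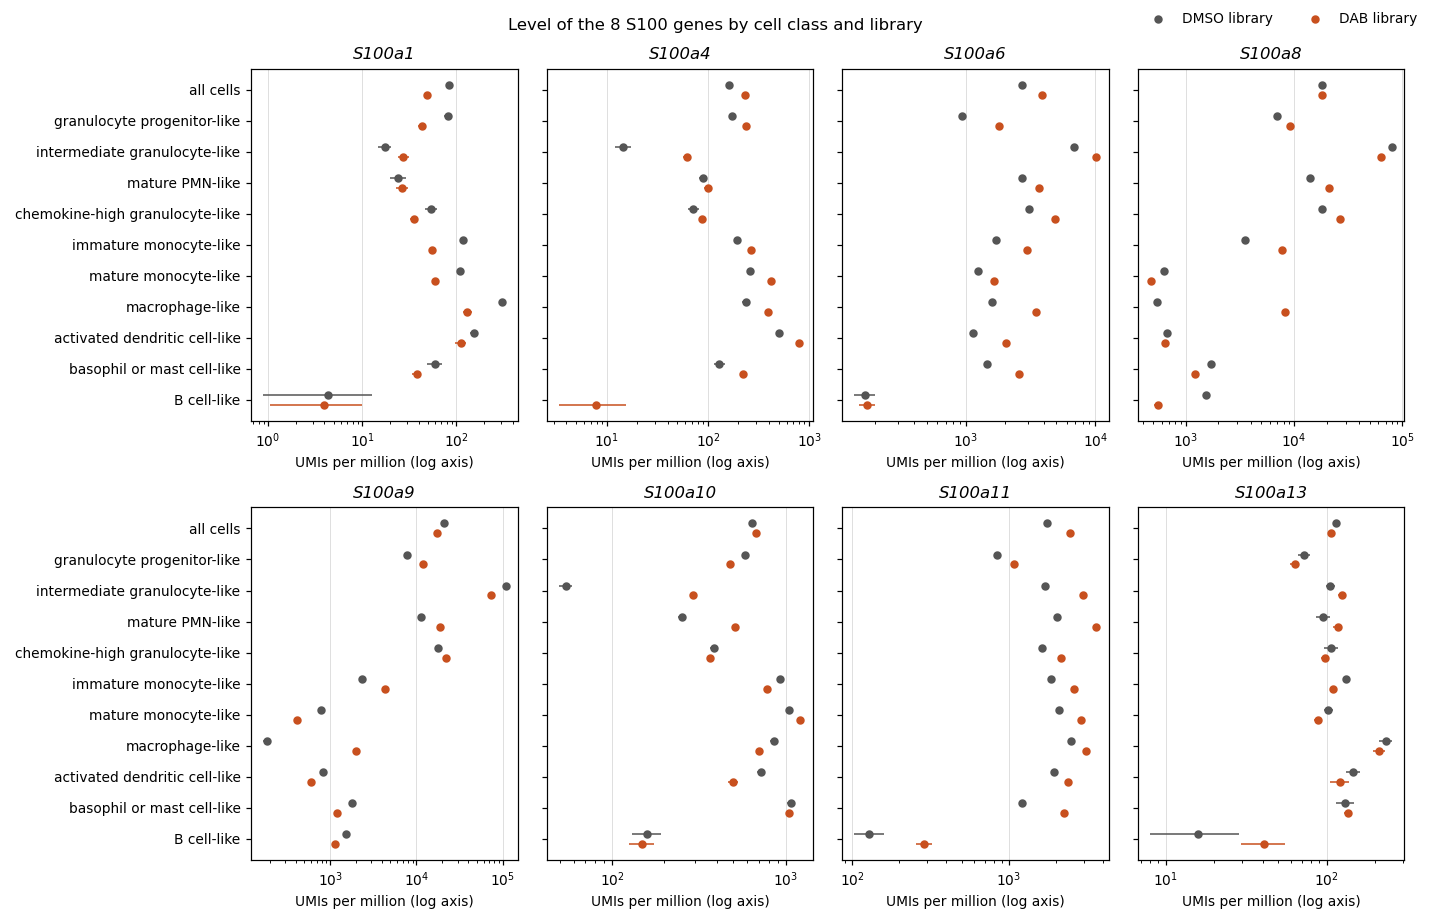
Level of each of the 8 S100 genes in CPM (log axis) over all cells and in 10 cell classes; grey points are the DMSO library, orange points the DAB library, and lines are 95% Poisson intervals. S100a8 and S100a9 were highest in intermediate granulocyte-like cells of both libraries, while S100a10 was lowest in those cells in DMSO (53.9 CPM); S100a4 was 0 in DMSO B cell-like cells and has no point there.

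The members fell into different distributions over the classes. S100a8, S100a9 and S100a6 were highest in intermediate granulocyte-like cells, named from markers such as Camp, Ltf, Ngp, Ly6g and Retnlg. Chemokine-high granulocyte-like and mature PMN-like cells followed in both libraries. In DMSO intermediate granulocyte-like cells S100a8 reached 80205 CPM and S100a9 reached 107727 CPM. These cells made up 14.6% of the DMSO library and carried 46.4% of its S100a8 and S100a9 UMIs, and in DAB they made up 7.51% of cells and carried 24.7%. The clusters without a class name carried 38.9% and 42.1%.

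Of the 9 myeloid classes, intermediate granulocyte-like cells had the lowest S100a4 and S100a10 levels in both libraries. S100a4 was highest in activated dendritic cell-like cells, with 502 CPM in DMSO and 793 CPM in DAB, and in DMSO intermediate granulocyte-like cells it was 14.5 CPM. S100a10 was highest in basophil or mast cell-like (1068 CPM) and mature monocyte-like cells (1049 CPM) of the DMSO library, whose intervals overlapped. S100a1 and S100a13 were highest in macrophage-like cells, at 310.1 and 233 CPM in DMSO and 132 and 213 CPM in DAB. In DAB the S100a1 interval of macrophage-like cells overlapped that of the activated dendritic class (111 CPM). S100a11 lay between 838 and 2471 CPM over the 9 myeloid classes in DMSO.

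Free RNA in droplets was gauged in B cell-like cells, which are not known to make calprotectin. After thinning each cell to 1500 UMIs, 20.5% of 127 DMSO and 31.4% of 172 DAB B cell-like cells held an S100a8 UMI (43.9% and 67.9% without thinning), at median depths of 3976 and 4828 UMIs. Their median was 0 S100a8 UMIs per cell in DMSO and 1 in DAB, and 1 cell held 83.1% of the S100a8 and S100a9 UMIs of the class in DMSO and 69.0% in DAB. Mature monocyte-like cells had thinned S100a8 shares of 11.2% and 12.6%, below the B cell-like share of the same library. Those of the activated dendritic cell-like class were 9.82% and 18.7%, also below it. Both classes were deeper than B cell-like cells, which lowers a thinned share that comes from free RNA. Their median cell, without thinning, also held 0 S100a8 UMIs in DMSO and 1 in DAB. Most cells of both classes are therefore read as background. Basophil or mast cell-like cells, at 22.2% and 32.3%, lay within the B cell-like intervals. They were deeper too (median 10389 and 19252 UMIs), so these shares cannot tell their S100a8 from background. Their median cell, without thinning, held 1 S100a8 UMI in DMSO and 2 in DAB. The B cell-like intervals of the libraries, 13.8% to 28.5% in DMSO and 24.5% to 38.9% in DAB, overlapped.

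**Figure D2:**
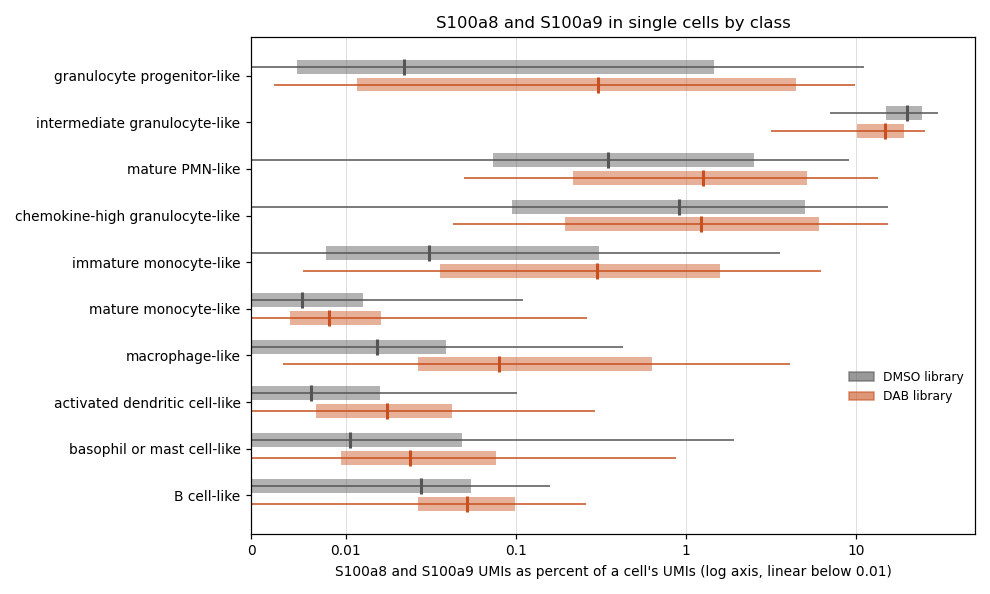
S100a8 and S100a9 UMIs as a percent of each cell's UMIs (axis logarithmic above 0.01 and linear below), by class; vertical ticks are medians, boxes the middle 50% of cells and lines run from the 5th to the 95th percentile, with DMSO in grey and DAB in orange. The median fell from 19.8% to 14.9% in intermediate granulocyte-like cells and rose from 0.031% to 0.298% in immature monocyte-like cells.

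In intermediate granulocyte-like cells, 5 of 8 members were higher in DAB (26.7% of 8073 genes were) and S100a9 was lower (14.3% of genes). S100a9 went from 107727 to 73464 CPM, a log2 ratio of -0.55 (-0.56 to -0.55), and S100a8 from 80205 to 63911 CPM, -0.33. The largest ratios in the class were those of the annexin partner S100a10, from 53.9 to 293 CPM (log2 2.44, 2.30 to 2.58), and of S100a4, from 14.5 to 61.6 CPM (2.08, 1.81 to 2.37). S100a11 (0.79), S100a1 (0.66) and S100a6 (0.57) were also higher, and S100a13 gave 0.24. Levels are parts of a fixed total, and S100a8 and S100a9 together went from 18.8% to 13.7% of the class's UMIs. Ratios without both genes in the totals were computed over all cells only. Because their share fell, leaving them out would lower the other members' ratios in this class, and the S100a6 ratio was near the limit. The members' median was 0.62 against 0.14 for all genes. An S100a10 UMI was found in 6.12% of 1259 thinned DMSO cells and in 30.9% of 779 DAB cells, against 20.1% and 75.3% without thinning, and the B cell-like shares were 17.3% and 16.3%. The thinned share lay below that of B cell-like cells in DMSO and above it in DAB. B cell-like cells were chosen as a gauge for calprotectin, so this sets no background level for S100a10.

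The class joins clusters D and N, of which D held 1048 of 1313 DMSO but 418 of 786 DAB cells. Within each cluster the same directions were seen: S100a10 had log2 ratios of 2.35 in D and 1.84 in N, and S100a4 1.79 and 1.97. For S100a9 the ratios were -0.495 and -0.497, each just short of the limit. S100a6 was read as higher in D (0.60) but not in N (0.26). Markers moved with the members: the summed intermediate granulocyte markers fell from 52952 to 35059 CPM, the chemokine-high granulocyte markers rose from 6905 to 15123 CPM and the immature monocyte markers from 280.3 to 2155 CPM. Their part in the ratios was not tested. All 6 calls of the class were also made in each of 4 other clusterings.

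Mature PMN-like cells (Csf3r, Mmp9, Cxcr2) had higher levels of both calprotectin genes in DAB. S100a8 went from 14049 to 21043 CPM (log2 0.58, 0.57 to 0.60) and S100a9 from 11206 to 18863 CPM (0.75, 0.74 to 0.77). S100a10 (252 to 508 CPM, 1.01) and S100a11 (2016 to 3580 CPM, 0.83) were higher too, so 4 of 8 members were higher (17.9% of 8083 genes) and 0 lower (9.33%). The median of all genes was 0.10 and that of the members 0.50. The calprotectin share of the median cell went from 0.348% to 1.26% of UMIs. Both clusters of the class, B and C, showed the rise, with S100a8 ratios of 0.67 and 0.60 and S100a9 ratios of 0.82 and 0.86. The direction depended on how the cells were grouped: when S100 genes were allowed into the clustering, the class held 1759 in place of 1144 DMSO cells and the ratios turned to -0.26 for S100a8 and -0.51 for S100a9, while S100a10 and S100a11 remained higher in all 4 other clusterings. The class's own markers summed to 2991 CPM in DMSO and 5608 CPM in DAB, and their part was not tested.

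Immature monocyte-like cells (Spp1, Lpl, Mmp12) showed the highest S100a8 ratio of the 6 classes with at least 200 cells in each library. S100a8 went from 3544 to 7812 CPM (log2 1.14, 1.13 to 1.15), S100a9 from 2362 to 4295 CPM (0.86) and S100a6 from 1694 to 2976 CPM (0.81), while S100a1 fell from 117 to 54.8 CPM (-1.10, -1.19 to -1.01). That is 3 members higher (12.3% of 10677 genes) and 1 lower (17.6%). The median cell held 3 S100a8 UMIs in DMSO and 35 in DAB. Cells with at least 1% of their UMIs from S100a8 and S100a9 numbered 218 of 1469 in DMSO and 410 of 1288 in DAB, and held 84.1% and 88.4% of the class's calprotectin UMIs. After thinning, 45.7% of DMSO and 69.2% of DAB cells had an S100a8 UMI (79.9% and 93.3% without thinning). The thinned S100a9 shares, 29.4% and 49.3%, lay within the B cell-like intervals (22.1% to 38.7% and 37.2% to 52.5%). Immature monocyte-like cells were deeper (median 17156 and 19378.5 UMIs, against 3976 and 4828), so these shares cannot tell S100a9 from background. Of B cell-like cells, 1.44% and 0.535% had at least 1% of their UMIs from calprotectin, against 14.8% and 31.8% here. The median cell held 1 S100a9 UMI in DMSO and 5 in DAB, against 1 and 1 in B cell-like cells. Intermediate granulocyte markers in this class summed to 1043 CPM in DMSO and 1630 CPM in DAB, and their part was not tested. With S100 genes allowed into the clustering, S100a8 gave 0.30 and S100a9 0.14 and neither was read as higher. S100a9 also fell short at the finer resolution, with 0.40.

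In the other 3 of these classes fewer members were read as changed. Chemokine-high granulocyte-like cells (Ccl3, Cxcl2) had higher S100a6 (0.66) and S100a8 (0.56) and lower S100a1 (-0.60), 2 members against 11% of 8507 genes higher and 1 against 12.2% lower. By cluster of this class, S100a8 gave 0.55 in G, -0.04 in J and 0.43 in W (43 DMSO and 72 DAB cells). S100a6 gave 0.64, 0.04 and 1.05 in the same order. Granulocyte progenitor-like cells (Elane, Mpo) had higher S100a6 (0.93) and S100a9 (0.62) and lower S100a1 (-0.92), against 16.2% of 9470 genes higher and 18.2% lower. At the coarser resolution of 0.5, where the class held 151 DMSO and 119 DAB cells, none of these 3 calls was made (S100a6 0.36, S100a9 -0.12, S100a1 -0.06). There S100a4 (1.14) and S100a11 (0.66) were higher and S100a13 (-0.57) was lower. Mature monocyte-like cells (H2-Aa, Cd74) had higher S100a4 (258 to 424 CPM, 0.72), against 17% of 9663 genes, and lower S100a1 (-0.89) and S100a9 (-0.90), against 18.7%. The S100a9 ratio passed the limit, but its thinned shares (10.0% and 12.7%) lay below those of the shallower B cell-like cells (29.9% and 44.8%). Most cells of the class are read as background, and the ratio rests on few cells. Of the class's S100a8 and S100a9 UMIs, 17 of 513 DMSO cells held 92.3% and 12 of 575 DAB cells held 64.8%. The remaining cells, under 1% calprotectin, went the other way, with 52.9 CPM of S100a9 in DMSO and 138 CPM in DAB. At resolution 0.5 the S100a9 ratio reversed to 0.94 and S100a8 went from -0.41 to 0.65.

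**Figure D3:**
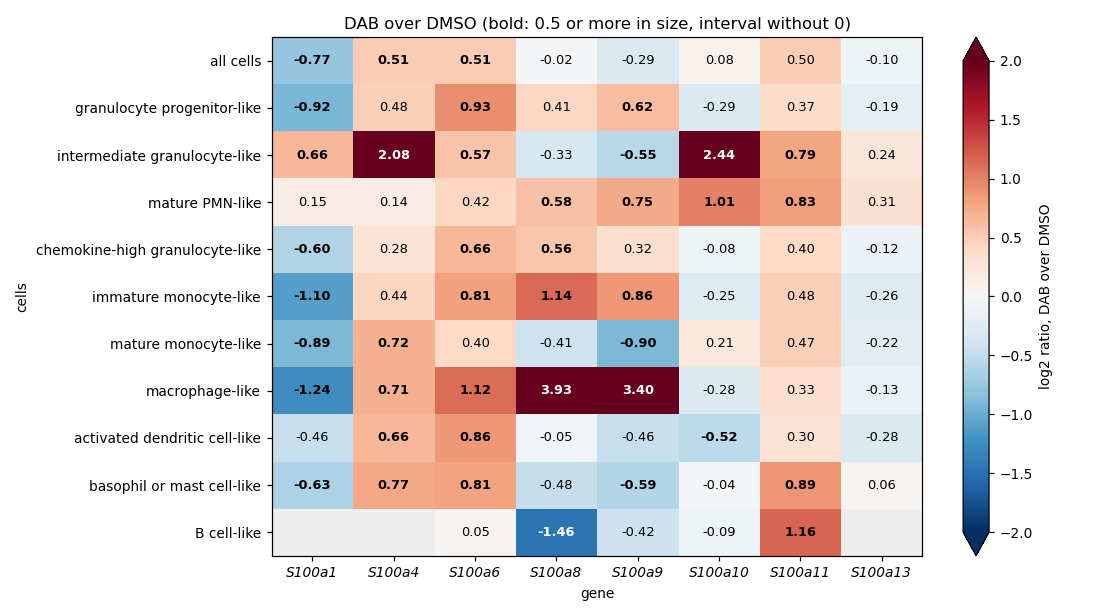
Log2 ratio of DAB over DMSO for the 8 S100 genes (columns) over all cells and by class (rows), with each value printed; bold marks sizes of at least 0.5 with an interval that leaves out 0, colours stop at 2 in size, and grey cells had fewer than 100 UMIs. S100a11 was above 0 in every row and S100a1 ranged from -1.24 in macrophage-like cells to 0.66 in intermediate granulocyte-like cells. For calprotectin, most mature monocyte-like and activated dendritic cell-like cells were read as background.

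Macrophage-like cells had the largest calprotectin ratios of the 10 classes, in 164 DMSO and 162 DAB cells. S100a8 went from 544 to 8266 CPM (log2 3.93, 3.84 to 4.02) and S100a9 from 188 to 1981 CPM (3.40, 3.24 to 3.56). In DMSO the thinned S100a8 share was 21.4%, within the B cell-like interval, and the S100a9 share was 15.7%, below the 29.9% of B cell-like cells. Macrophage-like cells were deeper (median 8752.5 and 3976 UMIs in DMSO), so these shares do not settle whether the levels were background. In DMSO cells under 1% calprotectin, S100a8 stood at 460 CPM, against 209 CPM in such B cell-like cells. S100a9 stood at 121 CPM, against 188 CPM. In DAB the S100a8 share of 59.6% lay above the B cell-like share, while the S100a9 share of 41.0% did not. The ratios are therefore of measured levels with free RNA included. Most DAB calprotectin UMIs of the class lay in part of the cells. At least 1% of UMIs came from S100a8 and S100a9 in 2 of 164 DMSO and 32 of 162 DAB cells. Those 32 held 84.8% of the class's DAB calprotectin UMIs. In the remaining cells S100a8 also rose, from 460 to 1901 CPM, against 209 and 255 CPM in such B cell-like cells. Their S100a9 went from 121 to 254 CPM, against 188 and 277 CPM. The median cell had 1 S100a8 UMI in DMSO and 3 in DAB. S100a8 made up 80.7% of the calprotectin UMIs in all DAB cells of the class, against 51.2% over all DAB cells. The macrophage markers (C1qa, C1qb, C1qc, Mrc1, Apoe, Adgre1) summed to 1174 CPM in DMSO and 327 CPM in DAB, and intermediate granulocyte markers to 1399 and 2442 CPM, so the class differed in its own markers between libraries. Their part in the ratios was not tested.

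Among the 19 clusters with at least 100 cells in each library, S100a11 was the steadiest member, above 0 in 19 and read as higher in 10. S100a6 was above 0 in 18, higher in 11 and lower in 1, and S100a4 was higher in 9 and lower in 0 of 17 with enough UMIs. S100a1 was lower in 6 and higher in 2 of 15. S100a8 was higher in 7 and lower in 3, and S100a9 higher in 6 and lower in 3. S100a13 was lower in 1 of 18 and higher in 0. S100a10 was higher in 6 and lower in 1. Among the clusters without a class name, S100a8 was higher in cluster E (0.88), which was led by Car4, Ly6i and Mmp9, and lower in cluster M (-1.02), led by Gm26917, Gria3 and Kcnq5, and cluster Q (-0.73), led by Retnla, Ly6g and Fn1.

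The balance within calprotectin also differed between the libraries. S100a8 made up 46.5% (46.4 to 46.5) of S100a8 and S100a9 UMIs in DMSO and 51.2% (51.1 to 51.2) in DAB, a difference of 4.71 percentage points. In single cells with at least 20 such UMIs, the median S100a8 share was 48.8% in 4992 DMSO and 53.5% in 6327 DAB cells. The share rose from 42.7% to 46.5% in intermediate granulocyte-like cells and from 60.0% to 64.5% in immature monocyte-like cells. It fell from 55.6% to 52.7% in mature PMN-like cells and from 47.1% to 43.4% in granulocyte progenitor-like cells. Of the 19 clusters, 14 had a higher S100a8 share in DAB. The largest fall was in B cell-like cells (-17.3 points), from 2105 DMSO and 1728 DAB UMIs of both genes, most of them in 1 cell of each library. With the DMSO mix of clusters applied to both libraries the difference was 4.66 points.

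**Figure D4:**
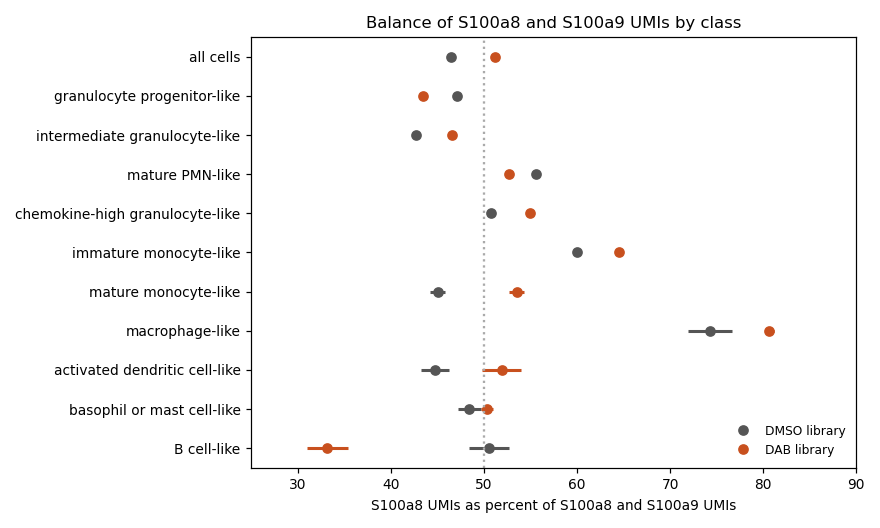
S100a8 UMIs as a percent of S100a8 and S100a9 UMIs over all cells and by class; grey points are DMSO, orange points DAB, lines are 95% binomial intervals and the dotted line marks equal counts. The share was higher in DAB over all cells (46.5% and 51.2%) and lower in mature PMN-like, granulocyte progenitor-like and B cell-like cells.

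The likeness of genes was measured by Pearson's r of log2(CPM + 10) over the 22 clusters with at least 50 cells in each library, among 8236 genes, and genes were ranked by the smaller of the DMSO and DAB values. The clusters share a library and its depth, so these values are descriptions. S100a8 and S100a9 were each other's closest gene, with r of 0.99 in DMSO and 0.97 in DAB, and the next for both was Chil3, a secreted chitinase-like protein. Lcn2, an iron-withholding granule protein, followed for S100a8. By that rank S100a1 was closest to S100a4 (0.87 and 0.91), with Atpif1 next (0.88 and 0.87). S100a6 was closest to Mapk13 (0.87 and 0.86), S100a10 to Cnpy2 (0.86 and 0.83), S100a11 to the actin-severing Cfl1 (0.92 and 0.86) and S100a13 to the myosin light chain Myl6 (0.86 and 0.84). S100a10 ran against S100a8, with r of -0.66 in DMSO and -0.25 in DAB.

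The other 9 S100 genes were scarce. S100a5 was the only one past 100 UMIs, with 183 in DMSO and 355 in DAB (log2 ratio 0.35, 0.09 to 0.62). S100a2 had 35 and 27 UMIs, S100a3 12 and 37, S100a7a 45 and 50, S100b 17 and 28 and S100a14 2 and 4. S100g had 24 UMIs in DMSO and 2 in DAB, and 18 of the 24 lay in basophil or mast cell-like cells. S100a16 and S100z had 0 UMIs in both libraries, and the floor set for a count of 0 was 3 UMIs.

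Partners of the family were read from 4 gene lists, beside the shares of all genes given above. Of 9 annexins and scaffold partners, 0 were higher and 1 was lower over all cells, namely Anxa1 (404 to 261 CPM, -0.63), a partner of S100a11. Anxa2, the partner of S100a10, gave -0.33 over all cells. In intermediate granulocyte-like cells, where S100a10 was higher, 2 of the 9 were higher, the S100a10-annexin scaffold Ahnak (43.3 to 89.9 CPM, 1.05) and Anxa5 (0.72). There 1 was lower, Anxa1 (-0.86), and Anxa2 gave 0.25. In mature PMN-like cells, where S100a10 was also higher, Anxa4 and Anxa5 were higher, Anxa6 was lower, and neither Ahnak nor Anxa2 was called. In immature monocyte-like cells 0 were higher and 4 lower: Anxa1 (-0.57), Anxa2 (-0.51), Anxa4 (-0.61) and Ahnak (-0.81). Chemokine-high granulocyte-like, mature monocyte-like and granulocyte progenitor-like cells each had 1 higher and 2 lower. Of 8 calprotectin receptors and adaptors, 1 was lower over all cells, the scavenger receptor Cd36 (16.9 to 1.28 CPM, -3.73). In mature PMN-like cells 4 of the 6 with enough UMIs were higher: Tlr4 (1.11), its co-receptors Ly96 (0.76) and Cd14 (1.81), and Cd33 (0.62). Chemokine-high granulocyte-like cells also had 4 of 6 higher, and intermediate granulocyte-like cells 2 of 6. Cd14 went the other way in immature monocyte-like (-0.54) and mature monocyte-like cells (-1.02), where Cd36 was also lower and only Cd33 was higher. In granulocyte progenitor-like cells Cd33 was higher and Myd88 lower (-0.56). Ager, the gene of the receptor RAGE, had 97 UMIs in DMSO and 176 in DAB over all cells.

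Of 5 metal-withholding proteins, 3 were lower over all cells: lactoferrin Ltf (342 to 104 CPM, -1.72), metallothionein Mt1 (1902 to 912 CPM, -1.06) and hepcidin Hamp (-1.94, from 101 and 40 UMIs). In intermediate granulocyte-like cells Lcn2 was lower (12959 to 8172 CPM, -0.67), as were Ltf and Mt1. Ltf and Lcn2 are also markers that define this class. Ltf was lower in every class with at least 200 cells in each library. Mt1 was also lower in immature monocyte-like, chemokine-high granulocyte-like and granulocyte progenitor-like cells. Lcn2 was higher in immature monocyte-like (1.29) and granulocyte progenitor-like cells (1.33) and lower in mature monocyte-like cells (-0.83). Slc11a1 was higher in mature PMN-like and chemokine-high granulocyte-like cells. Of 6 regulators of myeloid S100 genes, Cebpe, a driver of late granulocyte maturation, was higher (44.8 to 76.5 CPM, 0.77) and Stat3, which carries the IL-6 signal, was lower (98.0 to 68.8 CPM, -0.51) over all cells. In intermediate granulocyte-like cells, 0 of the 6 were higher and Cebpa was lower (25.3 to 9.97 CPM, -1.34). Cebpe, also a marker that defines this class, gave -0.04. In immature monocyte-like cells Cebpe was higher (1.46) and Cebpa (-0.65), Cebpb (-0.58) and Stat3 (-0.65) were lower. Cebpe was also higher in mature PMN-like, chemokine-high granulocyte-like and granulocyte progenitor-like cells. In mature monocyte-like cells Cebpb and Cebpe were lower and Spi1 was higher.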

How the data were processed

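The authors captured cells with the 10x Genomics 5′ v2 kit and counted UMIs with Cell Ranger 7.0.0 on mm10, and the deposited values are raw UMI counts per gene and barcode. The 8 members, the gene lists and the markers were chosen with earlier results of these data known. Barcodes with over 10% mitochondrial UMIs or with UMIs or genes over 4 median absolute deviations above the median (55 DMSO, 89 DAB) and the highest doublet scores (scanpy 1.11.5; 0.8% per 1000 barcodes; 777 and 1082) were left out, in place of the paper's doublet programs. Pearson residuals of 3000 variable genes without S100 genes were corrected for cell cycle scores and mitochondrial share and reduced to 40 principal components, aligned by mutual nearest neighbours (k = 20) and clustered by Leiden (leidenalg 0.10.2, resolution 0.9). A cluster took a class name from at least 3 markers and 1 among its 10 leading genes, a rule completed after the clusters were seen. Intervals at 95% are exact: Poisson for CPM, Clopper-Pearson for shares, conditional binomial for ratios. On simulated data for all cells, 95.5% of intervals for 13360 genes held the true ratio, and 99.5% of 200 changed genes were called. These values concern counting error only. UMIs held by few cells, the spread between cultures and ratios near the limit were not tested. Genes with under 100 UMIs over both libraries were not called. Named were the members, the other S100 genes, the 3 genes most like each member and 5 lists, of which the result of 1 is not reported here; clusters D, N, B, C, G, J, E, M and Q and the S100g count were picked after their values were seen. Positions are GENCODE M21. The cells of 1 library are not replicates, and depth was 106792967 UMIs in the DMSO and 165506902 in the DAB file. Alternatives covered scaling, filters, doublets, weighting, cell mix, free RNA and clustering.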

Additional observations from a re-analysis of the deposited data

Results flagged for a closer look

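Among the 6 classes with at least 200 cells in each library, S100a1 and S100a9 were read in opposite directions in different classes. The smaller classes were left out of this comparison. There S100a10 was lower in activated dendritic cell-like cells (-0.52), S100a8 was lower in B cell-like cells (-1.46) and S100a9 reached 3.40 in macrophage-like cells. For S100a1 the log2 ratio was 0.66 in intermediate granulocyte-like cells and -1.10 in immature monocyte-like cells, a difference of 1.76. The positive value comes from 157 DMSO and 246 DAB UMIs. For S100a9 it was 0.86 in immature monocyte-like and -0.90 in mature monocyte-like cells, a difference of 1.77. The thinned S100a9 shares lay within the B cell-like intervals in the first class and below them in the second. Both classes were deeper than B cell-like cells, so these shares alone do not settle what is background. Most mature monocyte-like cells are read as background, and 17 of 513 in DMSO held 92.3% of the calprotectin UMIs. Cells of that class under 1% calprotectin had 52.9 CPM of S100a9 in DMSO and 138 CPM in DAB. The ratio of the whole class reversed to 0.94 at resolution 0.5. The immature monocyte-like ratio was 0.14 with S100 genes in the clustering. With 1 library per condition neither difference was tested.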

How the results depend on the processing

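No paired analysis was possible because each condition has 1 library, and no replicate could be left out. For S100a8 and S100a9 summed over all cells (-0.16), the log2 ratio stayed below 0 in 8 alternatives: -0.145 with scaling by the median of ratios, -0.166 without both genes in the totals, -0.177 without doublet removal, -0.445 as a mean over cells, -0.043 with the DMSO mix of clusters, -0.114 with the B cell-like level subtracted and -0.167 with that of B cell-like cells under 1% calprotectin (added after seeing the data). The 6 other members summed (0.44) stayed above 0, at 0.454, 0.433, 0.448, 0.346 and 0.487 in the first 5 of these. The S100a8 share rose by 4.94 points without doublet removal, 5.96 with the B cell-like level subtracted and 4.83 with the second such level. The count of members became 1 higher and 2 lower as a mean over cells and under both subtractions. Shares of all genes called were computed for the main setting only. This count and the counts by class below therefore cannot be set against all genes. By class, 184 of 192 ratios kept their sign over 4 other clusterings and 27 calls changed. Among called ratios, those reversed were S100a8 (-0.26) and S100a9 (-0.51) in mature PMN-like cells with S100 genes in the clustering, and S100a9 in granulocyte progenitor-like (-0.12) and mature monocyte-like cells (0.94) at resolution 0.5, where S100a8 in mature monocyte-like cells also went from -0.41 to a higher call (0.65). Counts of members that moved by over 1.5 times follow, and others also changed by 1. With S100 genes in the clustering they became 1 higher in immature monocyte-like, 1 lower in mature PMN-like and 2 higher in mature monocyte-like cells. At resolution 0.5 they became 0 lower in chemokine-high granulocyte-like cells and 4 higher and 1 lower in mature monocyte-like cells. At 1.5 they became 1 higher in chemokine-high granulocyte-like and 2 higher in mature monocyte-like cells. Without alignment, 1 was higher in granulocyte progenitor-like cells. The causes were not tested. Depth limits S100a1, S100a4 and S100a13, which had under 100 UMIs in B cell-like cells.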
